A study of Mus musculus with 6 samples.

Results

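Autophagy was followed through the transcripts of 40 genes of its core machinery and cargo receptors in RNA-seq of 4T1, a cell line from a mouse mammary carcinoma. The genes were chosen by symbol for their place in the pathway, with earlier results of these data known. All 40 were found among the 48587 genes of the count table. The METTL7A1 group held 3 libraries of cells stably transfected with full-length Mettl7a1 cDNA in the vector pBICEP-CMV-2, in which a viral promoter drives the insert, and the mock group 3 libraries of cells transfected with the empty vector. The transfected cells were kept in medium with the selection drug G418. The sources do not say whether each transfected line was a single clone or a pool, so differences between the lines and effects of the transgene cannot be told apart.

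In autophagy, a membrane sheet grows around cytoplasmic cargo, closes into an autophagosome and fuses with a lysosome, where the content is degraded. A protein kinase complex built on ULK1 or ULK2 starts the process, and a lipid kinase complex with Beclin 1 marks the site with a phosphoinositide lipid. The sheet is fed with lipid by ATG2 and ATG9 proteins, and small ubiquitin-like proteins of the ATG8 group (LC3 and GABARAP) are attached to it by a conjugation system. Receptors such as p62 bind both cargo and ATG8 proteins, and their own protein is degraded with the cargo. Transcript levels therefore do not measure autophagic flux.

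Library totals ranged from 18386780 to 28459338 counts. The transfected gene Mettl7a1 followed the labels in every library, with 6355 to 11358 counts in METTL7A1 and 29 to 30 counts in mock, or 8.17 ± 0.14 as the log2 fold change with its standard error (SE). The epithelial markers Epcam, Krt8, Krt18 and Cdh1 summed to 1365 to 1676 cpm (counts relative to library size, with sizes scaled by TMM) in mock and 1410 to 1672 cpm in METTL7A1 libraries. Vim, a mesenchymal marker, was at 564 ± 59.5 cpm in mock and 252 ± 27.6 cpm in METTL7A1 libraries (SD, n = 3 each). Leukocyte markers summed to at most 0.324 cpm and endothelial markers to at most 0.892 cpm in any library. Of the 4 fibroblast markers, Col1a1, Col1a2 and Dcn were under the abundance filter while Pdgfra was at 17.7 ± 1.32 cpm in mock and 24.5 ± 1.44 cpm in METTL7A1 libraries (SD, n = 3 each), with no overlap (log2 fold change 0.47, edgeR adjusted p = 0.00177). The part of these marker changes in the results was not tested. In bulk RNA, fewer cells that make a transcript and less of it per cell cannot be told apart.

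Most of the changed autophagy transcripts were higher in METTL7A1 cells. All 40 genes passed the abundance filter of at least 1 cpm in at least 3 libraries, and 24 of them (60%) differed between the groups at an adjusted p under 0.05 (edgeR quasi-likelihood test, Benjamini-Hochberg adjusted over 13166 genes), where 42.1% of all tested genes did. Of these 24, 19 rose (47.5% of the 40, against 21.1% of all genes) and 5 fell (12.5%, against 21.0%). The median log2 fold change of the 40 was 0.23, and that of all tested genes was -0.03. Changes were mostly small: Atg9b alone was past the thresholds of the study (adjusted p under 0.01 and a log2 fold change over 1.5 in either direction), which 2.48% of all tested genes passed. The METTL7A1 and mock libraries did not overlap in 26 of the 40 genes (65%, against 51.6% of all genes), with 21 higher (52.5%, against 25.9%) and 5 lower (12.5%, against 25.6%) in METTL7A1 cells. The genes took 0.201% to 0.213% of all counts in the METTL7A1 libraries and 0.155% to 0.177% in mock, and without Sqstm1 and Atg9b 0.158% to 0.166% and 0.136% to 0.157%.

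**Figure D1:**
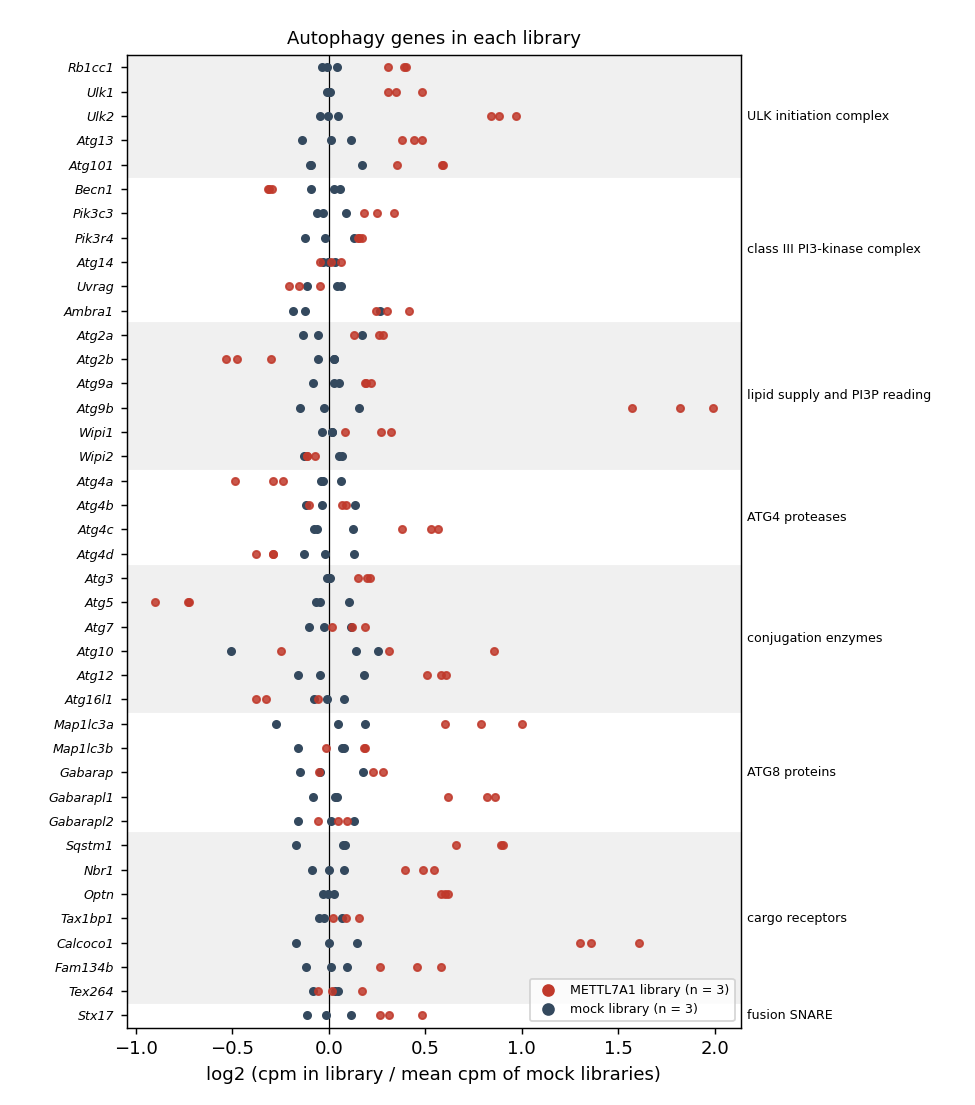
Level of each of the 40 autophagy genes in each library, as log2 of its cpm over the mean cpm of the 3 mock libraries (x axis), grouped by role (y axis). Every gene of the ULK initiation complex had its 3 METTL7A1 points (red) to the right of its 3 mock points (dark blue), and Atg9b and Calcoco1 lay furthest to the right.

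The upstream sequence of the genes with the clearest changes is shown to let their promoters be compared. Each line gives the 250 bases before the RefSeq start of the gene, 5′ to 3′ on the gene's strand, from RefSeq (build GRCm38.p6, the build of the count table). Atg9b, Calcoco1, Sqstm1 and Ulk2 were taken as strongly raised genes of different roles and Atg5 as the gene with the largest fall. Capitals mark matches to 5 short motifs searched on both strands, described after the sequences.
Atg9b, chr5:24392144-24392393, minus strand: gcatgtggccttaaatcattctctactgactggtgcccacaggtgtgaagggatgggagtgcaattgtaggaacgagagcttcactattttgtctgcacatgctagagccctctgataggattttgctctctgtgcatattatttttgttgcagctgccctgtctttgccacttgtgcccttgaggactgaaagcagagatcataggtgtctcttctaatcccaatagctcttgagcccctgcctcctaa
Calcoco1, chr15:102722179-102722428, minus strand: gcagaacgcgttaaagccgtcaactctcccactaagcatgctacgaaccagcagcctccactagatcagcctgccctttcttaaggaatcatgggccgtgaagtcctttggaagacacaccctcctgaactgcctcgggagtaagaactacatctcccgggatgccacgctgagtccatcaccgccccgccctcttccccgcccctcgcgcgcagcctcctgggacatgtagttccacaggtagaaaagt
Sqstm1, chr11:50210821-50211070, minus strand: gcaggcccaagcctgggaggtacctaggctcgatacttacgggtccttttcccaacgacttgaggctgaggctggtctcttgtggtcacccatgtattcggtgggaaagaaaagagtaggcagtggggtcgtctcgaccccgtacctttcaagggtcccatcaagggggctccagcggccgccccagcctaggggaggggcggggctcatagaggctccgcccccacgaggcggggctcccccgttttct
Ulk2, chr11:61855093-61855342, minus strand: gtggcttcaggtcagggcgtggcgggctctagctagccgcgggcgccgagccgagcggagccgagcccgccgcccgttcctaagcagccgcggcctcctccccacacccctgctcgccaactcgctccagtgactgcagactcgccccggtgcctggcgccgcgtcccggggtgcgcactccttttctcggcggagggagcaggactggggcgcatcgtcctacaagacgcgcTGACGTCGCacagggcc
Atg5, chr10:44268089-44268338, plus strand: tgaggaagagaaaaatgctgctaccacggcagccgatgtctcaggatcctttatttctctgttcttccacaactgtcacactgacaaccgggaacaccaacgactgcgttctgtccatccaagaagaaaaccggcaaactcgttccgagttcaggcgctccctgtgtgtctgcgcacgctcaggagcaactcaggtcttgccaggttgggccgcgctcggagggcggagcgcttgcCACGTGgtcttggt

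A promoter was listed for 34 of the 40 genes, and some genes had several, each before its own RefSeq start. The E-box CACGTG, the core of sites bound by TFEB and related factors of lysosomal and autophagy genes, was found upstream of 4 of the 34 (11.8%; Atg3, Atg5, Atg7 and Fam134b) and of 6.86% of all 27025 genes with a promoter. For Fam134b the match was in the promoter of an internal start (chr15:25942429-25942678) and not in that of its first start, and the promoter of Atg7 (chr6:114670846-114671095) also lies within the gene as the count table gives it. Its longer form TCACGTGA was found upstream of Atg3 alone (2.94%, against 0.907% of all genes), and overlaps an E-box by construction. TGACNNNGC, the core of the antioxidant response element, was found upstream of Atg13, Tax1bp1 and Ulk2 (8.82%, against 11.5%), for Tax1bp1 before the second of its 2 starts. Neither TGATGNAA, the amino acid response element bound by ATF4, nor TGANTCA, the AP-1 site, occurred upstream of any of the 34 genes, while 3.91% and 7.82% of all genes held them. The promoters of Atg9b, Calcoco1 and Sqstm1 held none of the 5 motifs in this window. As each motif was found upstream of at most 11.5% of all genes, a lack of matches in so few genes is not read as a result.

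All 5 genes of the ULK initiation complex were called as higher (21.1% of all tested genes were), with log2 fold changes from 0.37 to 0.90 (median 0.44). In each of them every METTL7A1 library was above every mock library, as in 25.9% of all tested genes, and 2 of the calls were lost with the offset for chromosome neighbours given with them. Ulk2 (chromosome 11, 61775649 to 61855073), which encodes a kinase that starts autophagy in parallel with ULK1, rose most. Its level was 38.0, 40.4 and 36.9 cpm in METTL7A1 replicates 1 to 3 and 20.6, 20.0 and 21.3 cpm in mock replicates 1 to 3, for a log2 difference of 0.90 ± 0.08 (SE, adjusted p = 7.5e-06, edgeR). The METTL7A1 libraries thus held 1.86 times the mock level. Ulk1, the kinase of the same complex best known as a target of mTORC1 and AMPK, was at 31.52, 27.97 and 28.71 cpm in METTL7A1 and 22.6, 22.7 and 22.4 cpm in mock libraries, for a log2 difference of 0.38 ± 0.08 (SE, adjusted p = 0.00295, edgeR). Rb1cc1, which encodes the scaffold FIP200, was the most abundant of the 5 per length.

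Rb1cc1 was at 120, 121 and 114 cpm in METTL7A1 and 91.2, 94.6 and 89.4 cpm in mock libraries, for a log2 difference of 0.37 ± 0.07 (SE, adjusted p = 0.00106, edgeR). The remaining genes encode the HORMA-domain proteins ATG13 and ATG101, which bind each other. Atg13 was at 13.5, 14.2 and 14.6 cpm against 11.3, 9.45 and 10.5 cpm in mock, for a log2 difference of 0.44 ± 0.11 (SE, adjusted p = 0.00622, edgeR). Atg101 was at 11.6, 13.6 and 13.7 cpm against 8.47, 10.2 and 8.49 cpm in mock, for a log2 difference of 0.52 ± 0.12 (SE, adjusted p = 0.00571, edgeR). Both were among genes whose chromosome neighbours also rose: taking the 40 nearest abundant genes, the median change was 0.14 around Atg13 and 0.33 around Atg101 (log2), compared with -0.07 to 0.06 around the other 3 genes of the complex. With an offset for this neighbourhood, Atg13 (0.30, edgeR adjusted p = 0.0507) and Atg101 (0.19, edgeR adjusted p = 0.264) were no longer called.

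The class III PI3-kinase complex, which makes the lipid PI3P on the growing membrane, moved in both directions. Becn1 (chromosome 11, 101285952 to 101302286), encoding Beclin 1, was lower, and Ambra1 and Pik3c3 were called as higher by small margins. Becn1 was at 85.6, 84.5 and 84.3 cpm in METTL7A1 and 107, 109 and 98.6 cpm in mock libraries, for a log2 difference of -0.31 ± 0.07 (SE, adjusted p = 0.00369, edgeR). All METTL7A1 libraries were below all mock libraries, and the neighbours of Becn1 had a median of -0.04. Becn1 shares 29.6% of its exon length with Cntd1 on the opposite strand, which had at most 33 counts.

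Ambra1, a positive regulator of the complex, was at 63.3, 58.4 and 56.1 cpm in METTL7A1 and 41.7, 43.5 and 57.0 cpm in mock libraries, so that mock replicate 3 lay within the METTL7A1 range (log2 fold change 0.32, SE 0.11, edgeR adjusted p = 0.0369). Its call was lost in 4 of 6 fits that left out a library, those without METTL7A1 replicate 1 or 2 or mock replicate 1 or 2. The call was also lost with upper quartile scaling, the replicate block and the neighbour offset (0.18, edgeR adjusted p = 0.253), and the neighbours of Ambra1 had a median of 0.14. Pik3c3, the catalytic subunit, was at 18.3, 19.4 and 17.4 cpm in METTL7A1 and 15.0, 14.7 and 16.3 cpm in mock libraries (log2 fold change 0.26, SE 0.09, edgeR adjusted p = 0.0406). It lost its call in the same 4 fits, with adjusted p from 0.0222 to 0.603 over all alternatives, and its neighbours had a median of 0.33, larger than its own change. Pik3r4, the regulatory subunit, Atg14, which directs the complex to autophagy, and Uvrag, which takes the place of ATG14 in a second form of the complex, were not called. Their log2 fold changes were 0.16 (SE 0.08), 0.01 (SE 0.09) and -0.14 (SE 0.09).

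Atg9b showed the largest change of all 40 genes. It lies on chromosome 5 (24384181 to 24392143, minus strand) and encodes a membrane protein that shuttles lipid between the leaflets of vesicle membranes. Its level was 159, 141 and 119 cpm in METTL7A1 replicates 1 to 3 and 44.5, 36.1 and 39.2 cpm in mock replicates 1 to 3, for a log2 difference of 1.81 ± 0.11 (SE, adjusted p = 7.56e-07, edgeR). The lowest METTL7A1 library was thus far above the highest mock library, and the mean was 3.50 times the mock level. The 40 nearest abundant neighbours had a median of -0.07, and the log2 fold change ranged from 1.71 to 1.92 over all alternatives. Atg9b overlaps Nos3 on the opposite strand over 294 exon bases, 7.53% of its exon length, and Nos3 had at most 17 counts in any library.

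Atg9a, the relative of Atg9b that is known as the ubiquitous form, was at 21.5, 21.4 and 21.8 cpm in METTL7A1 and 19.5, 17.7 and 19.1 cpm in mock libraries. Its groups did not overlap, yet the change of 0.20 (SE 0.08) was not called (edgeR adjusted p = 0.0696). Per kilobase of exon, Atg9b was at 10.2 ± 1.09 cpm and Atg9a at 4.28 ± 0.211 cpm in mock, and at 35.7 ± 5.13 and 4.92 ± 0.0549 cpm in METTL7A1 libraries (SD, n = 3 each). Atg9b was therefore the more abundant form of the pair in both groups. For Atg9a, however, 41.8% of the exon length also belongs to Gm29253 on the same strand, a gene with at most 4 counts, and reads from that stretch may not have been assigned to either gene.

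The lipid transfer proteins ATG2A and ATG2B link the growing membrane to the endoplasmic reticulum. Atg2b (chromosome 12, 105613539 to 105685241) was at 178, 158 and 152 cpm in METTL7A1 and 224, 211 and 224 cpm in mock libraries, for a log2 difference of -0.43 ± 0.08 (SE, adjusted p = 0.0012, edgeR). Its neighbours had a median of -0.19, and with the neighbour offset the change was -0.24 (edgeR adjusted p = 0.0359). Atg2a was 0.23 higher (SE 0.09, edgeR adjusted p = 0.0567), and its libraries overlapped between the groups by METTL7A1 replicate 3 and mock replicate 1. Of the PI3P readers, Wipi1 was at 25.3, 29.8 and 28.8 cpm in METTL7A1 and 24.1, 24.1 and 23.3 cpm in mock libraries, for a log2 difference of 0.23 ± 0.08 (SE, adjusted p = 0.0445, edgeR). Its call held in only 1 of the 6 fits that left out a library, that without METTL7A1 replicate 1. Wipi2, at 24.5 to 26.2 cpm per kilobase the more abundant of the pair, was at -0.10 ± 0.07 (SE, edgeR adjusted p = 0.316).

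Within the conjugation system, the genes of a pair of partner proteins moved in opposite directions. ATG12 is joined to ATG5, and with ATG16L1 the pair forms the complex that places ATG8 proteins on the membrane. Atg5 (chromosome 10, 44268358 to 44364291) was at 21.2, 23.9 and 24.1 cpm in METTL7A1 and 38.4, 42.6 and 37.9 cpm in mock libraries, for a log2 difference of -0.78 ± 0.08 (SE, adjusted p = 3.76e-05, edgeR), the largest fall of the 40 genes. Atg12 (chromosome 18, 46732417 to 46741579) was at 25.3, 25.8 and 24.1 cpm in METTL7A1 and 16.4, 19.2 and 15.1 cpm in mock libraries, for a log2 difference of 0.57 ± 0.10 (SE, adjusted p = 0.000996, edgeR). Neither pair of groups overlapped.

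Both genes lie in chromosome stretches whose genes moved the same way. The neighbours of Atg5 had a median log2 fold change of -0.50 and those of Atg12 of 0.40. With the neighbour offset Atg5 was still called as lower, by -0.28 (edgeR adjusted p = 0.0261), while Atg12 was at 0.17 and not called (edgeR adjusted p = 0.237). Atg16l1 was at 72.8, 60.3 and 58.2 cpm in METTL7A1 and 79.9, 71.8 and 75.0 cpm in mock libraries, and METTL7A1 replicate 1 lay above the lowest mock library (log2 fold change -0.25, SE 0.09, edgeR adjusted p = 0.0462). The call of Atg16l1 was lost in 4 of the 6 fits that left out a library, those without METTL7A1 replicate 2 or 3 or mock replicate 1 or 3, and also with upper quartile scaling, without an abundance filter and with the neighbour offset. The enzyme genes Atg3, Atg7 and Atg10 were not called. Atg7, which encodes the activating enzyme of the system, had a log2 fold change of 0.11 (95% interval -0.16 to 0.37), and Atg3, for the enzyme that transfers ATG8 proteins to lipid, of 0.19 (0.02 to 0.36, edgeR adjusted p = 0.0754). Atg10, with 13 to 37 counts per library the least abundant gene of the 40, had an interval of -0.39 to 1.03, which includes both no change and a doubling.

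The 4 ATG4 proteases, which trim ATG8 proteins before conjugation and free them from lipid afterwards, also differed in direction. Atg4c was at 9.54, 9.31 and 8.39 cpm in METTL7A1 and 6.12, 6.19 and 7.04 cpm in mock libraries, for a log2 difference of 0.49 ± 0.13 (SE, adjusted p = 0.00892, edgeR). Without METTL7A1 replicate 2 its adjusted p was 0.0534. Atg4d was at 14.1, 14.0 and 13.2 cpm in METTL7A1 and 18.8, 15.7 and 16.9 cpm in mock libraries, for a log2 difference of -0.31 ± 0.10 (SE, adjusted p = 0.0246, edgeR). The groups were separate for both genes, but the call of Atg4d was lost without METTL7A1 replicate 2 or 3, without mock replicate 1, without an abundance filter and with the neighbour offset (-0.12, edgeR adjusted p = 0.379). Atg4d shares 31.2% of its exon length with Kri1 on the opposite strand, which had up to 1587 counts. Atg4b, the most abundant protease gene at 8.85 to 8.98 cpm per kilobase, had a log2 fold change of 0.03 (95% interval -0.17 to 0.22). Atg4a had -0.33 (-0.67 to 0.02) and was not called (edgeR adjusted p = 0.121), although its groups were separate, at 3.07 to 3.65 cpm in METTL7A1 and 4.19 to 4.50 cpm in mock libraries. It shared 60.8% of its transcript stretches of 31 bases with the pseudogene Atg4a-ps, which had at most 3 counts. Reads from these stretches may not have been assigned to either gene, so the low count does not show that Atg4a lost none.

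**Figure D2:**
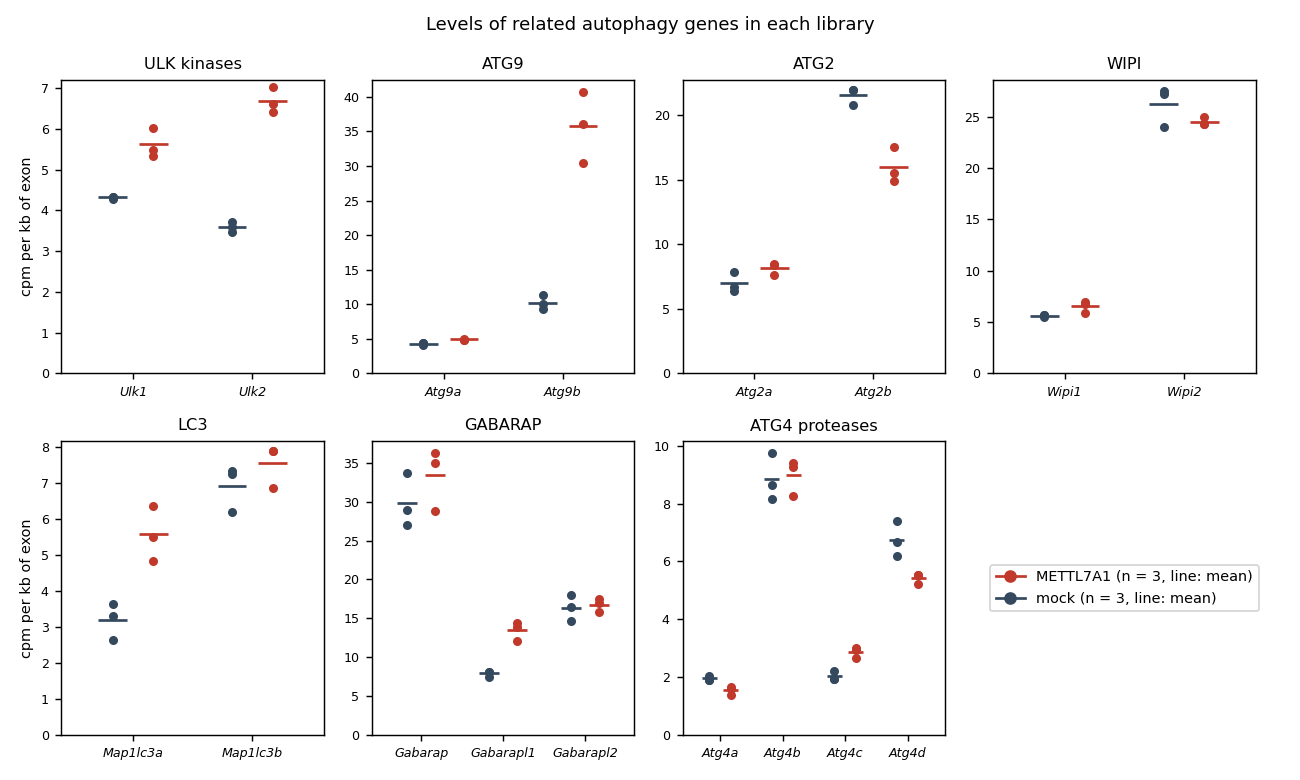
Levels in cpm per kilobase of exon (y axis) of related autophagy genes (x axis) in the 3 mock (dark blue) and 3 METTL7A1 libraries (red), with group means as lines. Atg9b, Ulk2, Gabarapl1 and Map1lc3a rose while a relative in the same panel stayed nearer its mock level. Atg2b and Atg4d were lower, as was Atg4a, which was not called.

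Of the ATG8 genes, the less abundant form of each subfamily rose. Map1lc3a (chromosome 2, 155276297 to 155278073) encodes LC3A and was at 5.39, 6.13 and 7.10 cpm in METTL7A1 and 4.05, 3.67 and 2.94 cpm in mock libraries, for a log2 difference of 0.82 ± 0.17 (SE, adjusted p = 0.00315, edgeR). Gabarapl1 (chromosome 6, 129533160 to 129542346), a GABARAP relative known as an early response gene to estrogen, was at 22.0, 26.1 and 25.3 cpm in METTL7A1 and 14.7, 14.8 and 13.6 cpm in mock libraries, for a log2 difference of 0.77 ± 0.09 (SE, adjusted p = 8.96e-05, edgeR). In both genes the groups were well apart, and the neighbour medians were 0.19 and -0.16. Gabarapl1 shared 25.2% of its stretches of 31 bases with 1700101I11Rik, which had at most 3 counts. Here too, reads from the shared stretches may not have been assigned to either gene. The other ATG8 genes were not called: Map1lc3b, the LC3 form most often used to follow autophagosomes, had a log2 fold change of 0.13 (95% interval -0.07 to 0.32), Gabarap of 0.16 (-0.07 to 0.40) and Gabarapl2 of 0.03 (-0.17 to 0.23). Per kilobase in mock, Gabarap led with 29.9 ± 3.50 cpm, followed by Gabarapl2 (16.4 ± 1.63), Gabarapl1 (7.90 ± 0.367), Map1lc3b (6.94 ± 0.628) and Map1lc3a (3.19 ± 0.507; SD, n = 3 each). This order depends on the annotated exon length. In mock cpm without length scaling, Map1lc3b (36.0) was above Gabarapl2 (27.5) and Gabarapl1 (14.4). In METTL7A1 libraries Gabarapl1 was at 13.5 ± 1.19 cpm per kilobase and remained under Gabarapl2 (16.7 ± 0.858).

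Whether relatives differed in their response was examined with the log2 ratio of their length-scaled counts within each library, a value that library scaling does not touch. All 14 pairs within 7 families were compared, a comparison added after the values were seen. In 12 of the 14 pairs the ratios of the METTL7A1 libraries did not overlap those of mock. No such share was computed for other gene pairs, 51.6% of single genes did not overlap between the groups, and 6 of the 14 pairs reuse the 4 ATG4 genes, so the count is not read as particular to these families. The exact two-sided permutation p of each of the 12 was 0.1, the smallest that 3 against 3 libraries allow (0.117 adjusted over the 14 pairs), so the design cannot reach 0.05 here. The ratio of Atg9b to Atg9a was 2.39 in mock and 7.22 in METTL7A1 cells. Gabarapl1 over Gabarap went from 0.265 to 0.404, Map1lc3a over Map1lc3b from 0.458 to 0.735, and Atg2a over Atg2b from 0.323 to 0.511. Ulk2 over Ulk1 went from 0.832 to 1.19, so the order of the kinases per length turned. The 2 pairs whose ratios overlapped were Atg4d over Atg4a (log2 ratio difference 0.02, exact permutation p = 0.8) and Gabarap over Gabarapl2 (0.13, exact permutation p = 0.3).

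Of the 7 cargo receptor genes, 5 were called as higher, against 21.1% of all tested genes, and none as lower, and the median log2 fold change of the 7 was 0.48. Sqstm1 (chromosome 11, 50199366 to 50210827) encodes p62, the receptor for ubiquitinated proteins, and was the most abundant of the 40 genes per length in both groups. It was at 258, 305 and 302 cpm in METTL7A1 and 172, 173 and 145 cpm in mock libraries, for a log2 difference of 0.82 ± 0.10 (SE, adjusted p = 5.93e-05, edgeR). Its length-scaled level rose from 57.8 ± 5.60 to 102 ± 9.36 cpm per kilobase (SD, n = 3 each), and the lowest METTL7A1 library was well above the highest mock library. Sqstm1 shares 20.5% of its exon length with 3010026O09Rik on the opposite strand, which had at most 134 counts. Nbr1, encoding a p62-like receptor, was at 105, 117 and 112 cpm in METTL7A1 and 80.3, 84.7 and 75.5 cpm in mock libraries, for a log2 difference of 0.48 ± 0.07 (SE, adjusted p = 0.000381, edgeR). Optn, encoding optineurin, a receptor for damaged mitochondria and bacteria, was at 26.8, 27.5 and 27.2 cpm in METTL7A1 and 17.6, 17.9 and 18.3 cpm in mock libraries, for a log2 difference of 0.60 ± 0.08 (SE, adjusted p = 0.000122, edgeR). The spread within groups was small for Optn, with SDs of 0.345 and 0.357 cpm.

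Calcoco1 (chromosome 15, 102706779 to 102722178), whose product acts as a receptor for the endoplasmic reticulum and Golgi, had the second largest rise of the 40 genes. It was at 9.22, 11.4 and 9.61 cpm in METTL7A1 and 3.34, 3.76 and 4.15 cpm in mock libraries, for a log2 difference of 1.42 ± 0.15 (SE, adjusted p = 2.67e-05, edgeR), and was just under the fold change threshold of the study. Without mock replicate 3 the log2 fold change was 1.52 and past that threshold. The neighbours of Calcoco1 rose as well (median 0.30), and with the neighbour offset its change was 1.12 (edgeR adjusted p = 0.000186). In mock it was the second least abundant of the 40 genes per length, at 0.990 ± 0.107 cpm per kilobase. Fam134b, now also named Retreg1, encodes a reticulon-like receptor of the endoplasmic reticulum and was at 40.3, 45.8 and 50.0 cpm in METTL7A1 and 30.8, 35.7 and 33.8 cpm in mock libraries, for a log2 difference of 0.44 ± 0.09 (SE, adjusted p = 0.00301, edgeR). Thus 2 of the 3 receptors of the endoplasmic reticulum in the list were raised, while the third, Tex264, was at 0.05 (95% interval -0.13 to 0.23). Tax1bp1, at 32.6 to 34.7 cpm per kilobase the second most abundant receptor in mock, had a log2 fold change of 0.09 (-0.06 to 0.24).

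Stx17, the SNARE protein gene for fusion of the closed autophagosome with the lysosome, was at 46.0, 40.9 and 39.6 cpm in METTL7A1 and 35.7, 32.7 and 30.5 cpm in mock libraries, for a log2 difference of 0.36 ± 0.09 (SE, adjusted p = 0.00675, edgeR). All METTL7A1 libraries were above all mock libraries, and the neighbours of Stx17 had a median of 0.02.

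The stability of the calls differed between genes. Under 14 alternatives (scaling, filters, tools, replicate block, neighbour offset and each library left out), 15 of the 24 calls held in every one, 12 of them higher (Rb1cc1, Ulk1, Ulk2, Atg9b, Map1lc3a, Gabarapl1, Sqstm1, Nbr1, Optn, Calcoco1, Fam134b and Stx17) and 3 lower (Becn1, Atg2b and Atg5). The other 9 were lost in at least 1, of which Atg13, Atg101 and Atg12 were lost with the neighbour offset only. With that offset 18 of the 40 genes were called as higher (18.1% of all genes) and 3 as lower (13.4% of all genes). Pik3r4 (0.36), Atg14 (0.29), Map1lc3b (0.31) and Gabarap (0.32) were then called as higher as well, in regions whose neighbours had medians of -0.28 to -0.16.

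**Figure D3:**
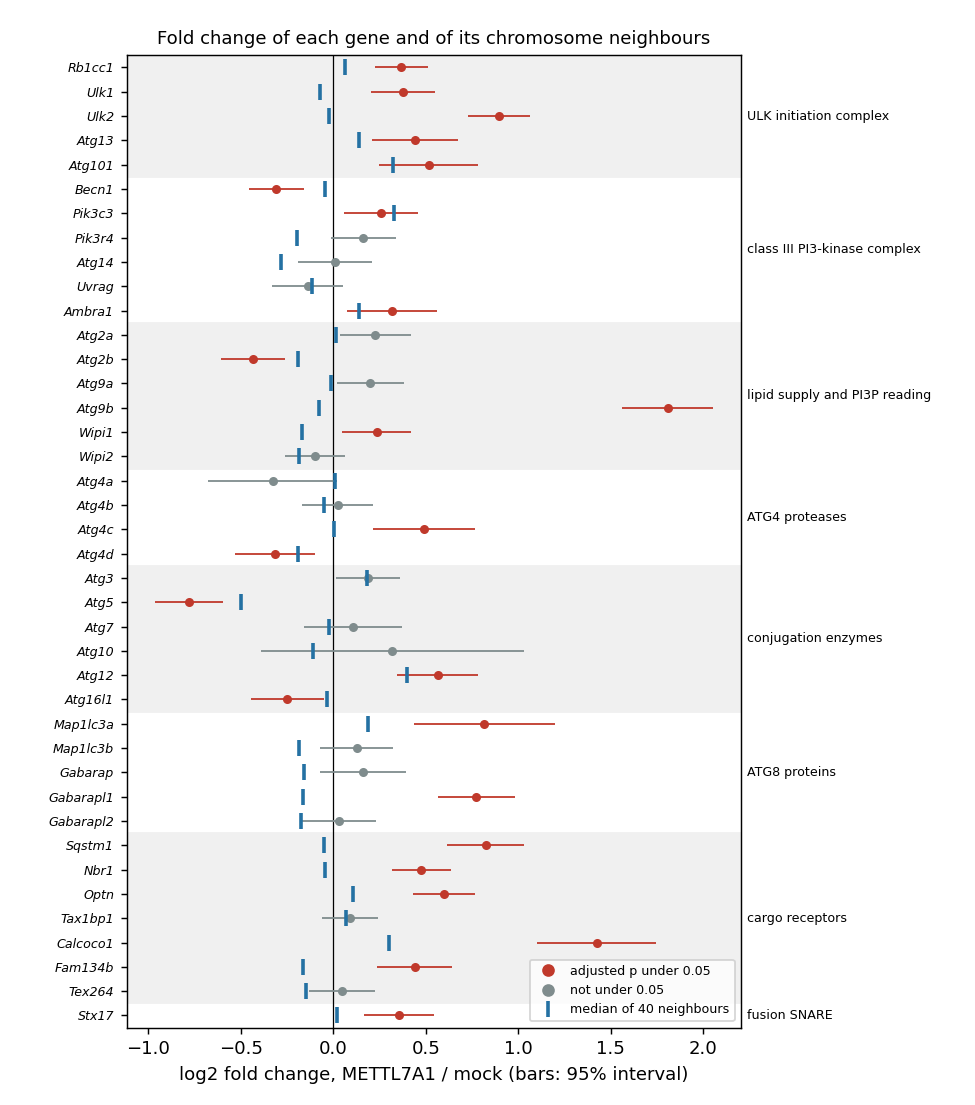
Log2 fold change of METTL7A1 over mock (x axis) with its 95% interval for each of the 40 autophagy genes (y axis, by role). Red points were called at an adjusted p under 0.05 and grey points were not. Blue ticks are the median change of the 40 nearest abundant genes on the chromosome. Among called genes, the tick lay within the interval of the gene for Atg101, Pik3c3 and Atg12, for example. For Atg5 it was also low but outside the interval, and it was far from the gene for Atg9b, Calcoco1, Ulk2, Sqstm1 and Gabarapl1.

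Genes of the same pathway outside the 40 were set beside the shares of all tested genes (42.1% called, 21.1% higher and 21.0% lower). Among 17 other genes of autophagosome formation and fusion, 8 were called (47.1%), 4 higher and 4 lower (23.5% each), near those shares, with a median log2 fold change of 0.09. Those with the smallest p were Vti1b (-0.68, SE 0.08), Tecpr1 (0.58, SE 0.08), Epg5 (0.47, SE 0.08), Sh3glb1 (-0.44, SE 0.07) and Ykt6 (-0.35, SE 0.07). The neighbours of Vti1b (median -0.46) and Epg5 (0.34) moved the same way, which left -0.22 and 0.14 after subtraction, whereas those of Tecpr1 (-0.34) moved the other way and left 0.91. Vti1b and Ykt6 encode SNARE proteins of fusion, whereas EPG5 and TECPR1 tether autophagosomes to lysosomes. Snap29, the SNARE partner of Stx17, was called as higher (0.48, SE 0.11, edgeR adjusted p = 0.00406) and was named after its value was seen. Vamp8, a further SNARE gene of this list, was not called (0.15, SE 0.09, edgeR adjusted p = 0.186). It was also named after its value was seen.

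Of 15 other cargo receptor genes tested, 7 were called (46.7%), 4 higher (26.7%) and 3 lower (20%), again near the shares of all tested genes, with a median of 0.07. The smallest p were those of Nufip1 (-0.42, SE 0.07), a ribosome receptor, Phb2 (-0.52, SE 0.10), a mitochondrial inner membrane receptor, Stbd1 (0.60, SE 0.12), a glycogen receptor, and the endoplasmic reticulum genes Fam134a (0.44, SE 0.10) and Sec62 (0.30, SE 0.08). The neighbours of Nufip1 had a median of -0.31, which left -0.11. The other genes of endoplasmic reticulum receptors in the list, named after their values were seen, were Rtn3, called as higher (0.28, SE 0.10), Fam134c (0.10, SE 0.07) and Atl3 (-0.06, SE 0.08), which were not called, and Ccpg1, which was under the abundance filter.

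Of the upstream regulators, 17 of 26 tested were called (65.4%, against 42.1% of all tested genes), 10 higher (against 21.1%) and 7 lower (26.9%, against 21.0%), with a median of 0.17. Ddit4, whose product REDD1 restrains mTORC1, was at 46.0 ± 8.73 cpm in METTL7A1 and 8.32 ± 0.625 cpm in mock libraries (SD, n = 3 each), for a log2 difference of 2.48 ± 0.14 (SE, adjusted p = 3.85e-07, edgeR). Sesn2, an amino acid sensor and mTORC1 inhibitor, rose by 1.35 (SE 0.17), Fnip1 by 0.58 (SE 0.08), Sesn3 by 0.49 (SE 0.08) and Stk11, which encodes the AMPK kinase LKB1, by 0.43 (SE 0.07) on the log2 scale. The neighbours of Ddit4 and Stk11 had medians of 0.50 and 0.31, which left 1.97 and 0.11. The remaining genes of this paragraph were named after their values were seen. Sesn1, the third sestrin gene, was lower (-0.50, SE 0.09), with neighbours at -0.52, and so were the transcription factor genes Foxo1 (-0.40, SE 0.10) and Foxo3 (-0.32, SE 0.07). The neighbours of Foxo1 had a median of -0.08. Those of Foxo3 had a median of -0.52, a larger fall than that of Foxo3 itself, which left 0.20 after subtraction. Of the transcription factors that bind the E-box shown above, Mitf (0.89, SE 0.16) and Tfeb (0.51, SE 0.18) were called and Tfe3 (0.21, SE 0.08, edgeR adjusted p = 0.069) was not. Tfeb had 39 to 97 counts per library. Among the genes with an E-box match, Fam134b rose and Atg5 fell, while Atg3 and Atg7 were not called. A link between these factors and those genes was not tested. Of the genes of mTORC1, Rptor (-0.21, SE 0.06), Mlst8 (-0.42, SE 0.12) and Akt1s1 (-0.29, SE 0.11) were lower, while Mtor (-0.19, SE 0.07) and Deptor (-0.21, SE 0.13) were not called. The libraries of Mlst8 and of Akt1s1 overlapped between the groups. Rptor had neighbours at -0.15, which left -0.06. Mlst8 and Akt1s1 had neighbours at 0.16 and -0.08, which left -0.57 and -0.21. Of the AMPK subunit genes, Prkaa1 was lower (-0.40, SE 0.07), while Prkab1 (-0.06, SE 0.07) and Prkag1 (0.19, SE 0.08) were not called and Prkaa2 was at 0 counts.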

How the data were processed

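Total RNA of 6 libraries of 4T1 cells was freed of ribosomal RNA by the authors and sequenced as stranded libraries (Illumina NovaSeq). The authors trimmed low-quality read ends, aligned read pairs to mm10 with STAR 2.5.3a (version per the submitters' processing notes) and deposited raw counts per gene from featureCounts on an Ensembl GRCm38 annotation, without normalization. Per the file headers, the table also gives each gene's exon length in bases. The strand setting and the treatment of multimapping reads are not given in the sources used here. Groups and replicate numbers came from the sample titles. Nothing in the labels names separate cultures beyond biological triplicates, so p values measure the spread between these libraries.

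Counts were tested in R 4.3.3 with edgeR 4.0.16 (TMM scaling, genes with at least 1 cpm in at least 3 libraries, quasi-likelihood test without covariates, Benjamini-Hochberg adjustment over all 13166 genes). A call is an adjusted p under 0.05. SE is the size of the log2 fold change divided by the square root of F. Intervals are 95%. The neighbour offset subtracts the median change of the 40 nearest genes on the chromosome with an average log2 cpm over 2. DESeq2 1.42.0 and voom (limma 3.58.1) were alternatives. Other scalings and filters, a replicate block and each library left out were tried too. Scripts were tested on simulated data. All columns with counts were used. No 2 libraries agreed within sampling noise.

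The 40 genes and the lists of other pathway genes were chosen with earlier results of these data known. In the table Retreg2 and Retreg3 were found under the older symbols Fam134a and Fam134c, and Retreg1 is Fam134b, a member. All called members were described, and of each other list the 5 called genes with the smallest p, beside genes said to be named later. Same-strand exon overlap with another gene was found for Atg9a alone among the 40.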

Additional observations from a re-analysis of the deposited data

How the results depend on the processing

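The 24 calls among the 40 genes became 21 to 25 under other scalings, filters, tools, the replicate block and the neighbour offset, and 18 to 23 when each library was left out, the fewest without METTL7A1 replicate 2. The 19 higher calls ranged from 16 to 20 under the former and from 15 to 19 with a library left out. The 5 lower calls were 3 without an abundance filter (28601 genes tested), 3 with the neighbour offset and 3 to 5 with a library left out. For these 3 the cause was not tested. The single gene past the thresholds of the study became 1 to 2 with a library left out, since Calcoco1 passed without mock replicate 3. Other cargo receptors were called in 4 to 8 genes with a library left out. The change of Pik3c3 reversed with the neighbour offset to -0.0707 and was not called. The log2 fold change of Mettl7a1 lay between 7.91 and 8.32.

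Replicate numbers did not pair the libraries (correlations of the deviations of same-numbered libraries -0.15, 0.20 and -0.37). Between differently numbered libraries of different groups these correlations ranged from -0.47 to 0.48, which the replicate block does not take up. With the replicate block 21 of the 40 genes were called, 16 higher and 5 lower, without Pik3c3, Ambra1 and Wipi1, and 7, 6 and 13 genes of the lists of other formation and fusion genes, other receptors and upstream regulators. One gene stayed past the study thresholds and Mettl7a1 was at 8.17. The ratios of relatives were also fitted without a library, in 84 fits added after seeing the data. The sign changed in 2, both of Atg4d over Atg4a. None moved by more than the spread between replicates, but leaving a library out of groups this small cannot move a ratio that far. The comparison with that spread therefore does not test how stable the ratios are. Atg10, at 13 to 37 counts per library, sets the limit of depth.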
